A study of Canis lupus familiaris with 21 samples.

Results

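The genes described here are 9 genes of B cells and plasma cells, CD79A, CD79B, CD22, BLK, MS4A1, PAX5, IRF4, JCHAIN and MZB1, among the 21399 genes counted in canine cutaneous histiocytoma (CCH), a skin tumor of dogs that arises from Langerhans cells and often regresses by itself. They were chosen by name, with their levels in these samples already known, so their values are given as a description, with no p-values. Counts of members past the rule applied to all genes are printed beside the share of all genes past it, and nothing is read from them. Tests are given for 72 other genes of the B cell lineage.

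RNA from formalin-fixed, paraffin-embedded tumors was sequenced from the 3′ ends of its transcripts in 21 samples. Group 1 held 5 stage 1 tumors, group 2a held 5 samples rich in tumor cells from stage 2 tumors, group 2b held 6 samples rich in lymphocytes from stage 2 tumors, and group 3 held 5 samples rich in lymphocytes from stage 3 tumors. Stages were set by how far lymphocytes had entered the tumor, and the areas were picked under the microscope, so each sample was a mixture of cells. All dogs were privately owned patients with no treatment named in the labels, aged 0.5 to 5.0 years in group 1 (1 age not given), 0.6 to 3.0 in group 2a, 0.3 to 6.0 in group 2b where given and 1.5 to 9.0 in group 3. The sources disagree on an age in group 2b, the lowest one, and the labels were used. All samples outside group 2b were from single dogs, whereas 4 of the 6 samples of group 2b pooled tissue of 3 or 4 dogs, 17 dogs in all. The samples held 2113393 to 3559404 counted reads. A normalized count is the read count divided by 1 size factor per sample. In such bulk samples, fewer cells of a type and less RNA per cell cannot be told apart.

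B cells recognize antigen with a surface immunoglobulin that signals through the CD79A and CD79B chains, and the transcription factor PAX5 keeps them committed to their lineage. When B cells become plasma cells, PAX5 and MS4A1 (CD20) are turned off, IRF4 is turned up, and JCHAIN and MZB1 serve the assembly of secreted antibody. In lymphoid tissue, B cells gather in follicles along the chemokine CXCL13, which their receptor CXCR5 senses. The sequences of these genes were not used here.

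Seen together, the 9 genes did not behave as 1 group. CD79A, CD79B, MS4A1 and PAX5 were almost absent from the tumor cell-rich samples and present in every sample of group 2b. CD22 and IRF4 were as high in tumor cell-rich as in lymphocyte-rich samples. JCHAIN and MZB1 varied from sample to sample within every group. A single sample, group 3 replicate 3, had the B cell genes at the level of group 2b, while the other 4 samples of group 3 lay lower for most of them.

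**Figure D1:**
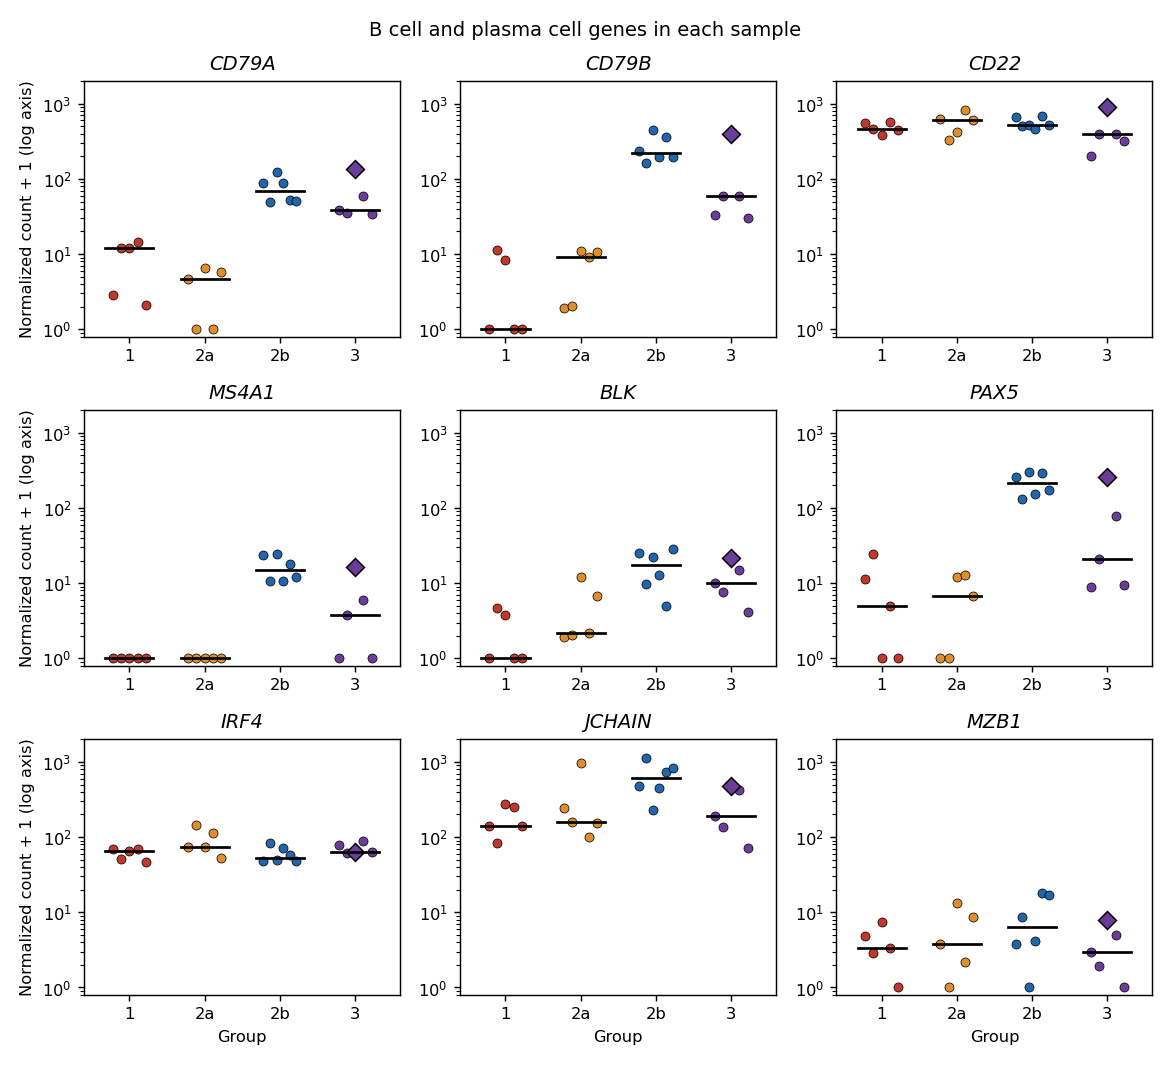
Normalized count plus 1 (log axis) of the 9 genes in each of the 21 samples, by group; each point is 1 sample, horizontal lines are group medians, and the diamond is group 3 replicate 3. For CD79B, the 6 samples of group 2b lie between 161 and 440 normalized counts and the diamond at 391, whereas the other samples of group 3 lie between 29.3 and 57.5.

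CD79A and CD79B are the signalling chains of the B cell receptor. CD79A lies on chromosome 1 from 113151211 to 113154758 and CD79B on chromosome 9 from 15081786 to 15085109 (assembly UU_Cfam_GSD_1.0). CD79A measured 1.89, 11.2, 10.9, 13.4 and 1.09 normalized counts in group 1 and 3.71, 0, 5.55, 0 and 4.84 in group 2a. In group 2b its lowest, median and highest values were 47.9, 69.0 and 122. The samples of group 3 measured 38.0, 34.0, 134, 57.4 and 33.5. Each lymphocyte-rich sample therefore exceeded each tumor cell-rich sample, and the ranges of groups 2b and 3 overlapped.

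CD79B measured 0, 10.3, 7.29, 0 and 0 normalized counts in group 1 and 0.928, 1.04, 9.998, 8.19 and 9.68 in group 2a. Group 2b ran from 161 over a median of 217 to 440. The samples of group 3 measured 31.98, 57.5, 391, 57.4 and 29.3. Here 4 of 5 samples of group 3 lay below the lowest sample of group 2b, which was true of 3 of 5 for CD79A. The 2 partner chains thus differed in how far group 3 lay from group 2b, with a log2 fold change of −0.32 (SE 0.38) for CD79A and −1.21 (SE 0.58) for CD79B. Whether these 2 values differ from each other was not tested.

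PAX5, the transcription factor that fixes B cell identity, lies on chromosome 11 from 53528788 to 53723946. It measured 10.4, 23.4, 0, 3.94 and 0 normalized counts in group 1 and 0, 0, 11.1, 11.7 and 5.81 in group 2a. Group 2b ran from 131 over 214 to 297. In group 3 the values were 7.99, 19.8, 255, 77.6 and 8.38, so that 3 of these 5 samples lay within the range of group 1 and 1 within the range of group 2b.

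MS4A1, which encodes the surface protein CD20, lies on chromosome 21 from 51664248 to 51675690. It had 0 reads in all 10 samples of groups 1 and 2a, where 0 reads per sample allow up to 3 counts. All 6 samples of group 2b held it, from 9.55 over 14.0 to 23.3 normalized counts. In group 3 the values were 0, 2.83, 15.5, 5.04 and 0. Against the limit of 3 counts over a whole group, MS4A1 was at least 24.97-fold higher in group 2b than in group 2a and at least 8.59-fold higher in group 3 than in group 1. These limits cover counting error only. In group 3, replicate 3 held 16 of the 24 reads and 2 samples had 0, so the second limit does not hold for each sample.

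BLK, a kinase of the Src family that acts below the B cell receptor, lies on chromosome 25 from 26488713 to 26563761. Its values were low throughout, with 0, 3.74, 2.73, 0 and 0 normalized counts in group 1 and 0.928, 1.04, 11.1, 1.17 and 5.81 in group 2a. Group 2b ran from 4.02 over 16.5 to 27.8, and group 3 measured 8.99, 6.60, 20.4, 14.1 and 3.14. The ranges of all neighbouring groups overlapped.

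CD22, an inhibitory coreceptor of the B cell receptor, lies on chromosome 1 from 118105745 to 118129031. It measured 557, 460, 377, 575 and 439 normalized counts in group 1 and 621, 329, 421, 830 and 598 in group 2a. Group 2b ran from 463 over 522 to 675, and group 3 measured 203, 390, 901, 395 and 317. All 4 groups overlapped, and the highest value of the series was that of group 3 replicate 3. CD22 was present in the same 10 tumor cell-rich samples in which MS4A1 had 0 reads, at no less than 329 normalized counts. The cells that held it were not identified.

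IRF4, a factor needed by plasma cells and also used by activated T cells and dendritic cells, lies on chromosome 35 from 2054228 to 2070812. It ranged from 45.9 to 68.0 normalized counts over the stage 1 tumors, from 52.3 to 142 over group 2a, from 47.2 to 81.4 over group 2b and from 60.4 to 86.6 over group 3. Its highest 2 values, 142 and 112, were in group 2a, and all groups overlapped.

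JCHAIN, which joins IgA and IgM into polymers, lies on chromosome 13 from 61022208 to 61030422. It measured 141, 82.4, 271, 253 and 138 normalized counts in group 1 and 244, 155, 970, 98.2 and 152 in group 2a. Group 2b ran from 230 over 604 to 1139, and group 3 measured 188, 134, 474, 423 and 70.2. JCHAIN was thus present in every sample, including those with 0 reads of MS4A1 and PAX5. The value of 970 stood far above the other 4 samples of group 2a and within the range of group 2b.

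MZB1, a chaperone of the endoplasmic reticulum that helps antibody folding, lies on chromosome 2 from 33834939 to 33837109. It never exceeded 17.1 normalized counts, and the medians, taken in the order 1, 2a, 2b and 3, were 2.36, 2.78, 5.42 and 2.00. The same group 2a sample that was high in JCHAIN had the highest MZB1 of that group, 12.2. In each group at least 1 sample had 0 reads.

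The order of the group medians was 2b, 3, then the tumor cell-rich groups for CD79A, CD79B, MS4A1, PAX5, BLK and JCHAIN. Only the step from group 3 down to the tumor cell-rich groups for CD79A and CD79B separated neighbouring groups without overlap. For CD22, IRF4 and MZB1 every pair of neighbouring groups overlapped.

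Lymphocyte-rich and tumor cell-rich areas of stage 2 tumors were compared first. CD79A, CD79B, MS4A1 and PAX5 were past the call rule (edgeR, Benjamini-Hochberg adjusted p of at most 0.05 and a log2 fold change of at least 1), which is 4 of the 8 members with enough reads, MZB1 being the ninth. Over all genes tested, 5.98% were called higher in group 2b, and since the members were chosen on these values nothing is read from their count. The same 4 genes did not overlap between the groups, beside 6.07% of all genes higher without overlap. The log2 fold changes of the 3 with reads in both groups were 4.62 (SE 0.55) for CD79A, 5.46 (SE 0.47) for CD79B and 5.26 (SE 0.55) for PAX5. Those of the others were 2.01 (SE 0.67) for BLK, 0.98 (SE 0.55) for JCHAIN, −0.01 (SE 0.21) for CD22 and −0.63 (SE 0.26) for IRF4. Without group 2a replicate 3, the sample with 970 counts, the value for JCHAIN was 1.97. CD79A and MS4A1 had enough reads only through group 2b, where they were high. With only the pooled samples of group 2b, 5 members had enough reads. CD79B and PAX5 were then past the call rule, beside 528 of 11145 genes called higher. With only its single-dog samples, 3 members had enough reads and 0 were past the rule, beside 79 of 10565 genes called higher.

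Many other B-lineage genes were higher in group 2b as well. Of 72 genes in 6 lists, 58 had enough reads, and 25 of them rose in group 2b while 1 fell, against 5.98% of all genes higher and 3.57% lower. Their median log2 fold change was 0.85, beside −0.02 over all genes tested. CXCR5, FCRLA, VPREB3, SPIB and ELL3 had enough reads only through group 2b, where they were high. They were not tested with its pooled or its single-dog samples alone. P-values here measure the spread among these samples. Those of group 2a are single dogs, whereas 4 of the 6 samples of group 2b are pools. The spread within group 2b is therefore not a spread between single dogs, and this limit applies wherever group 2b enters.

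CXCR5, the receptor for CXCL13, rose most, from 1.70 ± 1.08 (SD, n = 5) normalized counts in group 2a to 133 ± 57.3 (SD, n = 6) in group 2b (log2 fold change 6.21, SE 0.44). No p-value is given for it, since it had enough reads only through group 2b. CXCL13 itself rose from 107 ± 59.3 to 2512 ± 1061 (log2 fold change 4.55, SE 0.51, edgeR adjusted p = 8.66e-05). Neither gene showed any overlap between the 2 groups.

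Of the 14 tested genes of B cell receptor signalling, 7 rose and 0 fell. They included VPREB3, a protein bound to the precursor of the receptor (log2 fold change 5.35, SE 0.61), and FCRLA, an Fc receptor-like protein that stays inside B cells (3.92, SE 0.34). The list of 10 transcription factors had 7 that rose, among them SPIB (4.60, SE 0.51), the repressor BACH2 (3.01, SE 0.39) and IKZF3, or Aiolos (2.96, SE 0.22). T cells also use BACH2 and IKZF3.

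Of the 8 tested genes of the surface receptor list, 5 rose. They included LTB, which is a lymphotoxin chain and not a receptor, and which T cells make too (log2 fold change 2.85, SE 0.49). The 1 gene that fell was GPR183, an oxysterol receptor that guides B cells and dendritic cells, from 120 ± 43.9 (SD, n = 5) to 54.5 ± 20.7 (SD, n = 6) normalized counts (log2 fold change −1.13, SE 0.29, edgeR adjusted p = 0.0161). It was not called without group 2a replicate 2 or with the pooled or the single-dog samples of group 2b alone. Of the plasma cell list, 3 of 16 genes were called, SLAMF7 (2.74, SE 0.30), PIM2 (2.13, SE 0.32) and CD38 (1.72, SE 0.49), and all 3 are also made by activated T or NK cells. CD38 was the least stable of them, not called in 8 of 19 alternative fits, among them the replicate block and those without group 2a replicate 1, 3 or 4 or group 2b replicate 2 or 3.

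The germinal centre list had 1 gene called of 5 tested, ELL3, an elongation factor (log2 fold change 4.93, SE 0.58). BCL6, the master factor of germinal centre B cells, did not exceed 9.04 normalized counts in any sample. Among 5 tested genes of the B cell niche, CXCL13 and IL21, a cytokine of helper T cells (2.88, SE 0.58), rose.

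**Figure D2:**
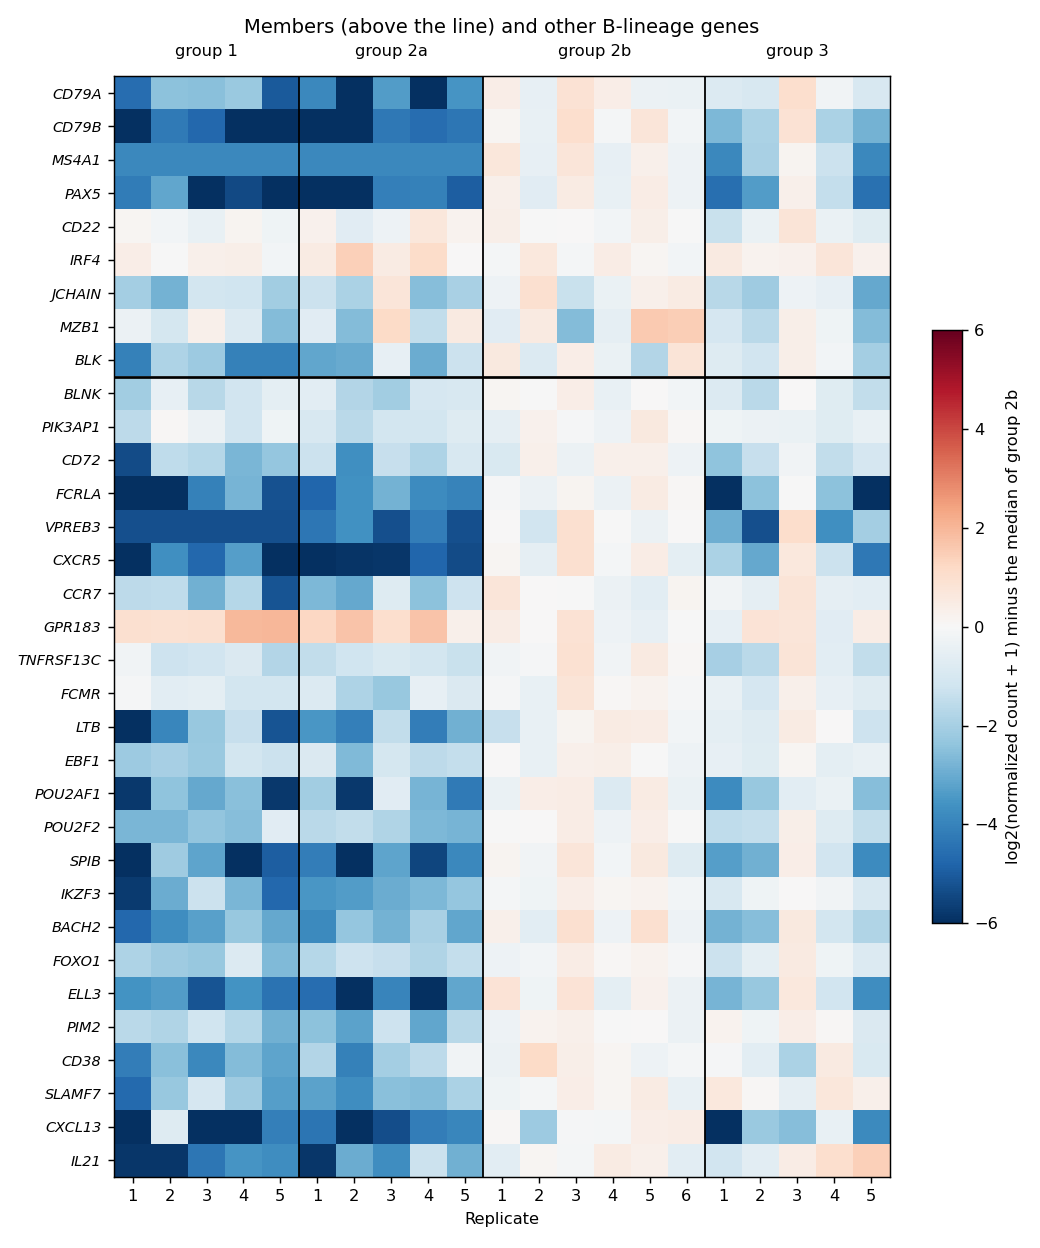
Difference of log2(normalized count + 1) from the median of group 2b for the 9 genes (above the line) and 24 other B-lineage genes called between groups 2b and 2a (below it), with 1 column for each of the 21 samples; blue is lower and red higher. The column of group 3 replicate 3 is close to white or red for CD79B, PAX5, FCRLA and VPREB3, while the columns beside it in group 3 are blue for them.

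T cell genes were also higher in group 2b. The summed level of 10 T cell markers was 438 to 1454 normalized counts in group 2a and 2589 to 4000 in group 2b, without overlap, although CD4 had at most 2.01 counts in any sample. The summed level of 5 genes listed for plasmacytoid dendritic cells, of which B cells also express IRF8 and TCF4, was 424 to 698 in group 2a and 1272 to 1609 in group 2b. The sum of 8 genes listed for tumor cells and Langerhans cells overlapped, with 4962 to 6301 in group 2a and 3928 to 7144 in group 2b. Lymphocytes can express some of these 8 genes too, such as ITGB2 and DLA-DRA, so the sum does not measure the share of tumor cells. The part of these other cells in the results above was not tested.

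Stage 3 lymphocyte-rich areas were next set against stage 1 tumors. CD79A and CD79B, 2 of the 6 members tested, were past the call rule, beside 4.92% of all genes called higher, and they alone did not overlap between the groups, beside 6.04% of all genes. Their log2 fold changes were 2.90 (SE 0.63) and 4.97 (SE 1.06), and without group 3 replicate 3 they were 2.35 (SE 0.59) and 3.58 (SE 0.92). PAX5 had a log2 fold change of 3.27 (SE 1.13).

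Of 53 other B-lineage genes tested, 13 rose and 3 fell in group 3 against group 1, beside 4.92% of all genes higher and 3.41% lower. Their median log2 fold change was 0.36, beside −0.002 over all genes tested. The largest rise was that of IL21, from 1.81 ± 1.82 to 81.6 ± 54.1 normalized counts (SD, n = 5 each, log2 fold change 5.39, SE 0.75). IL21 had enough reads only through the 5 samples of group 3, so no p-value is given for it. Leaving out any 1 of these samples left it untested. CXCR5 followed, from 4.62 ± 4.98 to 56.4 ± 73.4 (log2 fold change 3.54, SE 1.03, edgeR adjusted p = 0.0388). It had 184 counts in group 3 replicate 3 beside 5.24 to 48.4 in the other samples of group 3. Without that sample, 10 of the 16 genes were still called. CXCR5 and IL21 then had too few samples with 10 reads to be tested, and BACH2 (log2 fold change 1.29), CCR7 (1.65), LTB (2.27) and FOXO1 (1.11) were not called.

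Of the plasma cell list, 4 of 14 tested genes rose, CD38 (log2 fold change 2.88, SE 0.53), SLAMF7 (2.54, SE 0.51), PIM2 (1.74, SE 0.31) and PRDM1 (1.04, SE 0.28), the last being the factor that drives plasma cell fate and also acts in T cells. Of the 10 transcription factors, 4 rose, led by IKZF3 (2.34, SE 0.62) and BACH2 (2.28, SE 0.66), with FOXO1 at 1.46 (SE 0.39). Of 12 tested genes of receptor signalling, 1 was called. LTB (2.56, SE 0.75) and CCR7 (2.02, SE 0.53), a homing receptor of B, T and dendritic cells, rose as well.

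The 3 genes that fell were STAP1 (log2 fold change −1.93, SE 0.54), LMO2 (−1.18, SE 0.34) and GPR183 (−1.15, SE 0.35). RNA quality moved with the groups. DV200, the share of RNA fragments over 200 bases, was 64.5% to 71.2% in group 1 and 71.2% to 75.8% in group 3. With DV200 in the fit, 0 members and 1 other gene, IL21, were called, and the log2 fold changes of CD79A and CD79B were 1.52 and 2.16. The sources disagree on the DV200 of group 3 replicate 5, and with that sample left out of the same fit 0 other genes were called, IL21 having too few reads to be tested, and the 2 values were 1.59 and 2.36. Leaving out 1 sample at a time gave 6 to 15 called genes, the fewest without group 3 replicate 4 (6), and CD38, SLAMF7 and PIM2 were called each time.

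Markers of other cell types moved between groups 1 and 3 as well. The summed T cell markers were 48.2 to 1791 normalized counts in group 1 and 2998 to 4551 in group 3. Those of NK and cytotoxic cells were 100.2 to 1989 and 2718 to 6827, and those listed for plasmacytoid dendritic cells 325 to 616 and 732 to 1656, so that all 3 sums were higher in group 3 without overlap. Keratinocyte markers overlapped, with 813 to 12210 in group 1 and 622 to 6137 in group 3. IL21, SLAMF7, CD38, LTB, CCR7 and IKZF3 are used by T or NK cells too, and the part of these cells in the results was not tested.

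Stage 3 and stage 2 lymphocyte-rich areas were compared to see whether the B cell genes change with stage. Of the 8 members tested, 0 were called, beside 0.0428% of all genes. Their log2 fold changes were below 0 for all but IRF4 (0.24, SE 0.21), from −0.32 (SE 0.38) for CD79A, which was 0.02 with DV200 in the fit and group 3 replicate 5 left out, to −1.69 (SE 0.75) for MS4A1. JCHAIN was at −1.31 (SE 0.46), with 3 of 5 samples of group 3 below the lowest sample of group 2b.

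Among the 57 other B-lineage genes tested, 0 were called by edgeR, with 17 at an unadjusted p under 0.05, and 0 by DESeq2. Over all 11685 genes tested, 1527 had an unadjusted edgeR p under 0.05. Of these 57, 46 had a log2 fold change below 0, and their median was −0.37, beside 0.01 over all genes tested. All 10 transcription factors and 12 of 14 genes of receptor signalling were below 0, and 10 of 14 genes of the plasma cell list, where the median was −0.16.

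The counts of this comparison rested on group 3 replicate 3. It was left out because each sample was left out in turn, and for all 11 genes called without it, it was the highest sample of group 3, so that leaving it out lowers group 3 by construction. Without it, 11 other B-lineage genes were called, all lower in group 3, beside 0.347% of all genes called lower. FCRLA had a log2 fold change of −3.53 (SE 0.62), VPREB3 of −3.41 (SE 0.64), SPIB of −2.60 (SE 0.48), ELL3 of −2.47 (SE 0.47), CXCR5 of −2.43 (SE 0.47) and BACH2 of −2.24 (SE 0.40). TNFRSF13C, the receptor for the survival factor BAFF (−1.58, SE 0.29), the kinase BTK (−1.51, SE 0.28), the factor POU2F2 (−1.37, SE 0.19) and the adaptor BLNK (−1.13, SE 0.22) were called too. Among the members, the values of CD79B and PAX5 in that fit were −2.58 (SE 0.33) and −2.92 (SE 0.53). Leaving out any other single sample gave 0 called genes among the 57.

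The plasma cell and niche lists had 0 genes called in the same fit. Of 14 tested genes of the plasma cell list, 5 had a log2 fold change above 0 and 9 below, from −0.41 for CD38 to 0.74 for SDC1, the plasma cell surface protein CD138, with a median of −0.14. Of 5 niche genes, 3 were above 0 and 2 below, from −1.90 (SE 0.79) for CXCL13 to 0.56 (SE 0.43) for IL21.

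**Figure D3:**
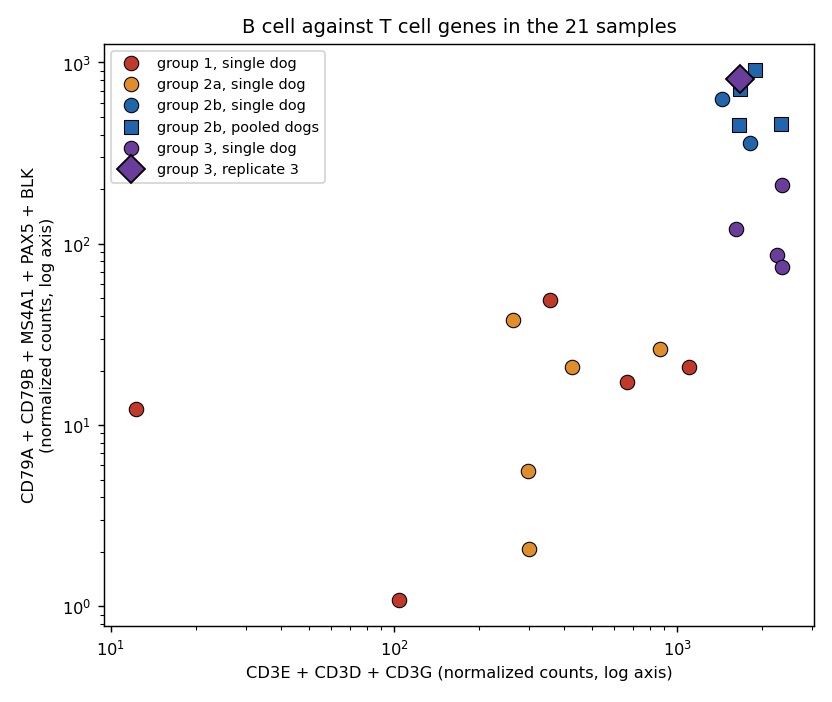
Summed normalized counts of CD79A, CD79B, MS4A1, PAX5 and BLK against those of CD3E, CD3D and CD3G in the 21 samples (both axes log); squares are pools of dogs, circles single dogs, and the diamond is group 3 replicate 3. The lymphocyte-rich groups overlap in their T cell counts, and 4 of the 5 samples of group 3 lie below all samples of group 2b in B cell counts.

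The same sample was high in B cell genes and at the low end of group 3 in T cell genes. CD79A, CD79B, MS4A1, PAX5 and BLK together made 816 normalized counts in it, 74.3 to 212 in the other 4 samples of group 3, 358 to 904 in group 2b and at most 48.7 in groups 1 and 2a. CD3E, CD3D and CD3G together made 1662 in it, 1620 to 2347 in the others of group 3 and 1444 to 2328 in group 2b. The full list of 10 T cell markers made 2998 in it, 3351 to 4551 in the others of group 3 and 2589 to 4000 in group 2b. Per 100 counts of the 3 CD3 chains there were 49.1 B cell counts in that sample, 3.18 to 9.01 in the other 4 and 19.7 to 48.1 in group 2b. The summed markers of NK and cytotoxic cells were 2718 in it and 5258 to 6827 in the others of group 3. It came from 1 dog aged 2.5 years, with a DV200 of 75.8% and 2548649 counted reads. In group 2b, the 2 single-dog samples made 626 and 358 B cell counts and the 4 pools 451 to 904.

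Tumor cell-rich areas of stage 2 and stage 1 were compared last. Only CD22, IRF4 and JCHAIN had enough reads, with log2 fold changes of 0.22 (SE 0.23), 0.61 (SE 0.27) and 0.88 (SE 0.58), and 0 of 3 were called, beside 0.393% of all genes. DV200 was 64.5% to 71.2% in group 1 and 70.5% to 76.6% in group 2a, and with it in the fit the value for JCHAIN turned to −0.81 and 0 genes were called in place of 44 over all genes. Of the 47 other B-lineage genes tested, 0 were called by edgeR, with 4 at an unadjusted p under 0.05, and 0 by DESeq2. Over all 11200 genes tested, 2005 had an unadjusted edgeR p under 0.05. The median log2 fold change of the 47 genes was −0.04, beside −0.02 over all genes tested.

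The members were also compared within groups, by the correlation of log2(normalized count + 1) after the mean of each group had been subtracted. Over the 21 samples, the 10 pairs of CD79A, CD79B, MS4A1, PAX5 and BLK had a median r of 0.54, and JCHAIN and MZB1 had an r of 0.75. The 10 pairs of JCHAIN or MZB1 with those 5 genes had a median of 0.36, and the 5 pairs with IRF4 one of −0.30. CD22 had a median of 0.40 with those 5 genes, and one of 0.87 over the 11 lymphocyte-rich samples alone, where group 3 replicate 3 is high in all of them. MS4A1, with 0 reads in groups 1 and 2a, varied only among the lymphocyte-rich samples. These are descriptions, since the points share their libraries and several rest on low counts.

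Of 12505 genes ranked by this measure, the 5 most like MS4A1 were SYCE2 (r = 0.90), CTDSP1 (0.84), PYY (0.82), CRIP3 (0.82) and FCRLA (0.81). Only the lymphocyte-rich samples could tie a gene to MS4A1, which did not vary in the others. Like MS4A1, PYY had at most 1.11 normalized counts in groups 1 and 2a, and 13.8 to 104 in group 2b. SYCE2 and CTDSP1 did not share the group pattern, with medians of 14.6 and 8.50 in group 1 beside 29.3 and 9.50 in group 2b.

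The 5 most like JCHAIN were LOC102154760 (r = 0.85), LOC119869019 (0.81), LOC119869021 (0.80), LOC608379 (0.80) and CIR1 (0.78). RefSeq gives the first 3 as constant regions of an antigen receptor on chromosome 8, between positions 73258712 and 73404411, and LOC608379 as a variable segment on chromosome 17 from 37714942 to 38060393. In the dog, the immunoglobulin heavy chain genes lie on chromosome 8 and the light chain genes on chromosomes 17 and 26. Such segments belong to families of near-identical copies, so the counts of any 1 of them are uncertain.

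**Figure D4:**
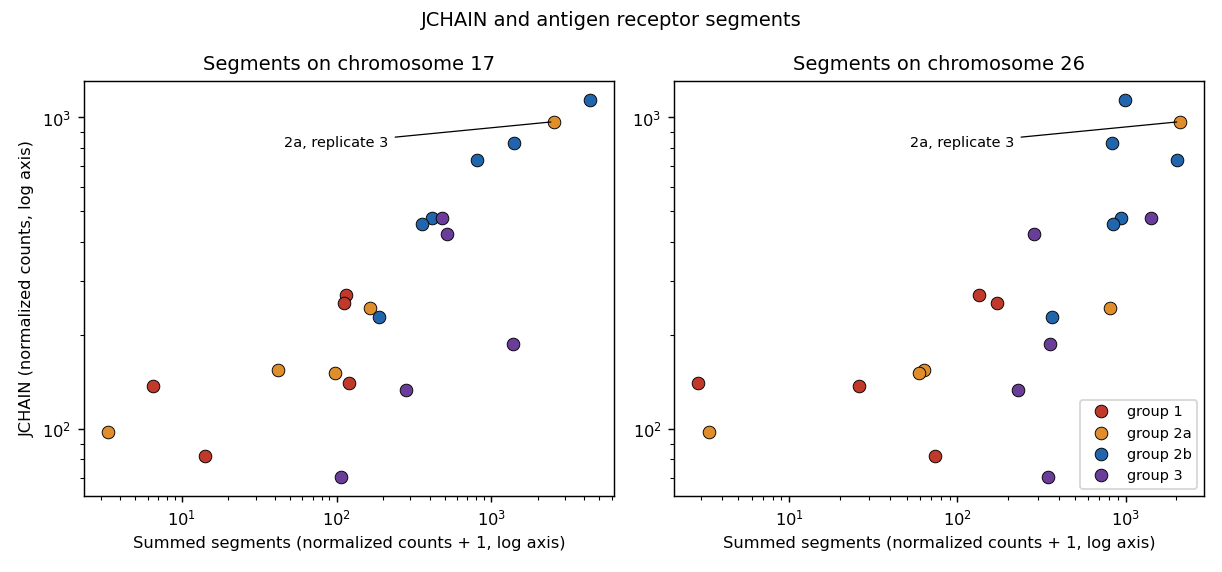
JCHAIN normalized counts against the summed normalized counts plus 1 of the antigen receptor segments on chromosome 17 (2 segments, left) and chromosome 26 (7 segments, right) in the 21 samples (all axes log). The marked sample, group 2a replicate 3, lies beside the samples of group 2b, at 970 for JCHAIN and at 2559 and 2116 for the segments.

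Summed by chromosome, a sum chosen after the values had been seen, the 2 segments on chromosome 17 made 2559 normalized counts in group 2a replicate 3 and 2.34 to 163 in the other 4 samples of group 2a. The 7 segments on chromosome 26 made 2116 in it and 2.34 to 810 in the others. The medians of groups 1, 2a, 2b and 3 on chromosome 17 were 111, 96.8, 609 and 480, and on chromosome 26 they were 73.0, 62.5, 888 and 346. In that group 2a sample CD79A (5.55), CD79B (9.998) and BLK (11.1) were the highest of the group by small counts, PAX5 (11.1) was second to the sample with 11.7, and MS4A1 was 0. CD79A, CD79B, MS4A1, PAX5 and BLK together made 37.8 normalized counts in it, beside 2.08 to 26.2 in the other 4 samples and at least 358 in group 2b. Its JCHAIN and segment counts thus lay at the level of group 2b and its B cell counts below it. In group 3 replicate 3, where the 5 B cell genes made 816, JCHAIN was 474, also within the range of group 2b.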

How the data were processed

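Groups and replicates follow the sample labels, and 0 table columns lacked a sample. The submitters' notes and methods name cutadapt, STAR (assembly UU_Cfam_GSD_1.0), featureCounts and DESeq2, and the handling of reads matching several genes is not given in the sources used here. The authors deposited raw counts for each gene in all samples. The normalized count, a signal the authors deposited beside it, was checked to be the count divided by 1 size factor per sample (0.855 to 1.27). Their columns of log2 fold changes, standard errors and p-values for 2 comparisons were not used.

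Raw counts were tested with edgeR 4.0.16 (R 4.3.3; TMM, quasi-likelihood F-test) on the samples of the 2 groups compared, over genes that reached 10 counts in 5 or more samples, and Benjamini-Hochberg adjusted p-values cover all genes tested. The fit was tested on simulated data. Python 3.11.15, pandas 2.3.3 and scipy 1.17.1 made the summaries, with a pseudocount of 1 on the log2 scale. Alternatives were DESeq2 1.42.0, RLE factors, no count filter, 1 fit of all groups, DV200 as a covariate, a replicate block, single samples left out, and only pooled samples of group 2b. Fits limited in group 2b to single dogs, and fits with DV200 but without group 3 replicate 5, whose value differs between the labels and the study's sample list, were added after seeing the data. The labels' values were used elsewhere.

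The members and lists were chosen with earlier results of these data known. Named are the members, up to 12 called genes per comparison by size of log2 fold change, and the 5 genes most like MS4A1 and JCHAIN. Named after their values were seen are GPR183, LMO2, PRDM1, BCL6, CD4, the remaining genes of the plasma cell list, and the genes called without group 3 replicate 3. The rule for immunoglobulin genes needed gene descriptions, and promoter motifs needed sequences, so neither was run. Some genes of the lists are counted but not reported here by name. CR2, MEF2B and CLEC4C were not analysed here, and CD1A was found as CD1A6. No 2 samples of a group were alike enough to be 1 library deposited again.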

Additional observations from a re-analysis of the deposited data

Results flagged for a closer look

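Within a group, a value was singled out when its gap to the nearest other sample was a large share of the group's range (Dixon's 95% critical value). Of 34 sets of a gene and a group, 5 were singled out. For independent, normally distributed values it would be about 1 in 20, or 1.7. Counts need not be so distributed, and the genes were chosen with their levels known. Nothing is therefore read from 5 beside 1.7. Group 3 replicate 3 was the highest of its group for CD79A (133.9 normalized counts, the others 33.5 to 57.4), for CD79B (390.9, the others 29.3 to 57.5), for PAX5 (255.1, the others 8.0 to 77.6) and for CD22 (901.1, the others 202.8 to 394.9). Group 2a replicate 3 was the highest of its group for JCHAIN (969.8, the others 98.2 to 244.0). The genes of 1 sample are not independent of each other.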

How the results depend on the processing

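The number of other B-lineage genes called in group 2b against group 2a was 26, and 24 to 27 with single samples left out. With only the pooled samples of group 2b it was 18 of 50 tested genes, and with only the single-dog samples 8 of 47. Fewer samples entered both of these fits. In group 3 against group 1 it was 16, 1 with DV200 as a covariate, and 0 with DV200 and group 3 replicate 5 left out; with single samples left out it was 6 to 15, with 9 without group 1 replicate 1, 8 without group 1 replicate 3, 9 without group 1 replicate 5, 9 without group 3 replicate 2 and 6 without group 3 replicate 4. In group 3 against group 2b it was 0, and 0 to 11 with single samples left out, the 11 arising without group 3 replicate 3. In group 2a against group 1 it was 0 in every fit. The cause of these changes was not tested.

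With the replicate block, the 4 counts were 25, 12, 0 and 0. Same-numbered samples come from different dogs, and their deviations from the group means correlated between −0.3043 and 0.153, so the numbers pair no samples.

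Of 436 alternative values of the members' 25 log2 fold changes, 428 moved by less than the spread between samples and 8 by more. The first was MS4A1 with DESeq2 in group 2b against group 2a (6.33, and 6.98 in the main fit). MS4A1 had 0 reads in group 2a, so neither value is an estimate of a fold change. Another was CD79B without group 3 replicate 3 (−2.58, group 3 against group 2b). With DV200 in group 3 against group 1 they were CD79A (1.52, and 1.59 with group 3 replicate 5 left out), CD79B (2.16 and 2.36) and CD22 (−0.76). The last was JCHAIN with DV200 in group 2a against group 1 (−0.81). Over all genes, DESeq2 called 47 in place of 5 in group 3 against group 2b and 264 in place of 44 in group 2a against group 1, and DV200 as a covariate gave 62 in place of 955 in group 3 against group 1 and 0 in place of 44 in group 2a against group 1, as did the replicate block in the latter. The median r between members was 0.36, 0.32 and 0.31 with pseudocounts of 1, 0.5 and 5. Counts of MS4A1, BLK and MZB1 were too few for small differences to be seen.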

Other observations

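Among other B-lineage genes, FCER2 did not exceed 3.28 normalized counts in any sample, and FCRL1 had 0 reads in all 5 samples of group 1 and 2.87 to 27.1 normalized counts in group 2b. TNFRSF17, the plasma cell receptor for BAFF and APRIL, was highest in group 3 replicate 3, with 25.2 normalized counts beside 0 to 5.04 in the other samples of group 3 and 2.80 to 18.2 in group 2b. In group 1 replicate 2, CXCL13 measured 1496 normalized counts, beside 7.56 to 150 in the other 4 samples of that group. The 5 B cell genes made 48.7 counts in it, the highest sum in groups 1 and 2a, where group 2a reached 37.8.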
